A study of Homo sapiens with 8 samples.

Results

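EFHD1 and the genes of mitochondrial calcium uptake were examined in HepG2 cells, a human hepatocarcinoma cell line, after ectopic expression of the epithelial transcription factor GRHL2. The genes were chosen by symbol: EFHD1, its paralog EFHD2, and MCU, MICU2, MCUR1, SMDT1, LETM1 and VDAC1. Of these 8 genes, 7 had a row among the 17561 genes of the deposited table, and no expression value of SMDT1 was analysed here. EFHD1 was picked because its value was higher in GRHL2-transfected cells, so its difference is given as a description, and no test of it is used. The other genes were listed for their role, with earlier results of these libraries known.

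The comparison asked which transcripts differ upon GRHL2 expression. Cells received either pGRHL2, which drives a flag-tagged GRHL2 cDNA from the EEF1A1 promoter and also encodes a green fluorescent protein, or the vector pcDNA3, so that the plasmids differed by more than GRHL2. RNA was collected 48 h after transfection. There were 4 libraries per plasmid, numbered 1 to 4, all from this line grown with dexamethasone and insulin.

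Mitochondria take up calcium released by the endoplasmic reticulum (ER). The ion crosses the outer membrane through VDAC channels and the inner membrane through the uniporter, whose pore is MCU. SMDT1 (also called EMRE) couples the pore to the EF-hand gatekeepers MICU2 and MICU3, and calcium in the matrix stimulates several dehydrogenases, among other effects. EFHD1 is an EF-hand protein of the inner mitochondrial membrane described as a calcium sensor, whereas EFHD2 is mostly known as a cytosolic actin-binding protein. In the liver, mitochondrial calcium is known for its part in energy metabolism and in cell death.

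In hg38, EFHD1 spans positions 232606057 to 232682776 of chromosome 2 and EFHD2 spans 15409888 to 15430339 of chromosome 1, both on the plus strand. MCU spans 72692143 to 72887694 of chromosome 10 (plus strand), MICU2 spans 21492691 to 21604181 of chromosome 13 and MCUR1 13786557 to 13814568 of chromosome 6 (minus strand). LETM1 spans 1811479 to 1856156 of chromosome 4 and VDAC1 133971871 to 134004975 of chromosome 5, also on the minus strand. The coding sequences of EFHD1 and EFHD2 (GENCODE release 44, the first-numbered transcript of each gene) hold 239 and 240 codons before the stop. Of the 711 coding bases that could be aligned, 74.4% were identical, and 67.1% of the 237 aligned codons encode the same amino acid. The loops are shown because they are the calcium-binding part of both proteins and are more alike between the paralogs than the coding sequence as a whole. The lines below give the coding bases of each EF-hand loop, located by an EF-hand pattern in the translated sequence, with capitals marking the bases that differ between the paralogs.

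EFHD1 loop 1, codons 103 to 114: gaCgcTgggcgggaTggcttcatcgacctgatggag
EFHD2 loop 1, codons 105 to 116: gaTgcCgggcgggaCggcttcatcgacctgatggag
EFHD1 loop 2, codons 139 to 150: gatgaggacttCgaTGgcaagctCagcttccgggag
EFHD2 loop 2, codons 141 to 152: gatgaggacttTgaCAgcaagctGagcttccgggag

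Loop 1 was identical at 33 of 36 bases and loop 2 at 32 of 36 bases. The longest stretch of identical bases in any pair of EFHD1 and EFHD2 transcripts was 27 bases, which is shorter than the 150-base reads. Neither gene shared exon bases with another annotated gene.

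The start of that EFHD1 transcript, at position 232633604, is also the one RefSeq uses for the EFHD1 promoter. The 250 bases before it are given next to those of EFHD2, because the values of these paralogs are compared throughout (RefSeq, GRCh38.p14, plus strand). Capitals mark the GC box core GGGCGG on either strand.

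EFHD1, chr2:232633354-232633603: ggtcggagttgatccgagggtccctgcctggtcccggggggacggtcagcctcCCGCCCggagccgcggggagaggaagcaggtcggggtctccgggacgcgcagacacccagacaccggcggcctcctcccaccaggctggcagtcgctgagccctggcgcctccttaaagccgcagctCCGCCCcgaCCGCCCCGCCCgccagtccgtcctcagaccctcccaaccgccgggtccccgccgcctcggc
EFHD2, chr1:15409638-15409887: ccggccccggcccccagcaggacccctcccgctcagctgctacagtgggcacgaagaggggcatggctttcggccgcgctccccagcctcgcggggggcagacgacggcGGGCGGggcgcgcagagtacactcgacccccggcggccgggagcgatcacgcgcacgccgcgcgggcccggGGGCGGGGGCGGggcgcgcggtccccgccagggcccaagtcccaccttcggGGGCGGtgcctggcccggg

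The stretch before EFHD1 was 75.6% G and C and that before EFHD2 was 80.8%. In the 300-base RefSeq windows, which also hold the 50 bases after the start, GGGCGG was found 5 times for EFHD1 and 4 times for EFHD2, and at least once in 45% of all 35116 windows. The Grainyhead consensus AACCGGTT, which reads the same on both strands, was searched as written and as AACCNGTT on both strands, a form that includes the first. These letters occurred in 0.134% and 1.73% of all windows, and in 0 of the windows of EFHD1, EFHD2, MCU, MICU2, MCUR1 and SMDT1. EFHD1 has 5 protein-coding transcripts with 5 different starts in GENCODE. The same search around all 5 starts found AACCNGTT in 0 windows and GGGCGG in 1 window, that of the RefSeq start. The search covered only these letters in windows of 300 bases, and binding by GRHL2 was not tested. Gene-level values do not separate these transcripts.

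Before the results, the libraries were checked. Depth was unknown, since no read counts were analysed. The deposited values were on a log2 scale, set per transcript length according to the methods, and library medians lay between 6.71 and 6.73. For all 17561 genes, same-numbered pGRHL2 and pcDNA3 libraries had the same mean for every number, so that a pGRHL2 value is the mirror image of its pcDNA3 partner. The same-numbered libraries were therefore compared as 4 pairs, and each log2 FC (pGRHL2 over pcDNA3) carries the SD of the 4 pair differences. Under this structure, groups that do not overlap and a difference of the same sign in all 4 pairs are one and the same count. GRHL2 lay between 16.22 and 16.87 in pGRHL2 and between 6.61 and 7.25 in pcDNA3 libraries, a log2 FC of 9.48 ± 0.57 (SD of 4 pairs; adjusted p = 4.84e-08 by limma). Of 8 hepatocyte markers, 8 were in the table at levels from 7.11 to 17.1 and 0 were called, that is, had an adjusted p under 0.05 by limma. In bulk samples such as these, a change in each cell and a change in the share of transfected cells cannot be told apart.

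EFHD1 was higher in every pGRHL2 library than in any pcDNA3 library. Its values in pcDNA3 libraries 1 to 4 were 5.30, 5.16, 5.30 and 5.30. In pGRHL2 libraries 1 to 4 they were 6.11, 6.26, 6.11 and 6.12. The difference was 0.81, 1.10, 0.81 and 0.83 in pairs 1 to 4, which gives a log2 FC of 0.89 ± 0.14 (SD of 4 pairs), or 1.85-fold on the deposited scale. Pair 2 stood above the other 3, which lay within 0.02 of each other, and the log2 FC without it was 0.82. Over all genes, 5 had a larger log2 FC, GRHL2 included. The rlog transformation behind these values shrinks differences of genes with few reads, and by how much it did so for EFHD1 was not tested.

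EFHD2, the paralog, was not called. Its values were 9.38, 9.52, 9.50 and 9.47 in pcDNA3 libraries 1 to 4, and 9.63, 9.50, 9.52 and 9.54 in pGRHL2 libraries 1 to 4. The groups overlapped, because pair 2 differed by -0.02 while pair 1 differed by 0.25. The log2 FC was 0.08 ± 0.12 (SD of 4 pairs; adjusted p = 0.599 by limma), with a 95% confidence interval from -0.06 to 0.23. The upper bound of this interval lies below each of the 4 pair differences of EFHD1, which was picked for its difference.

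**Figure D1:**
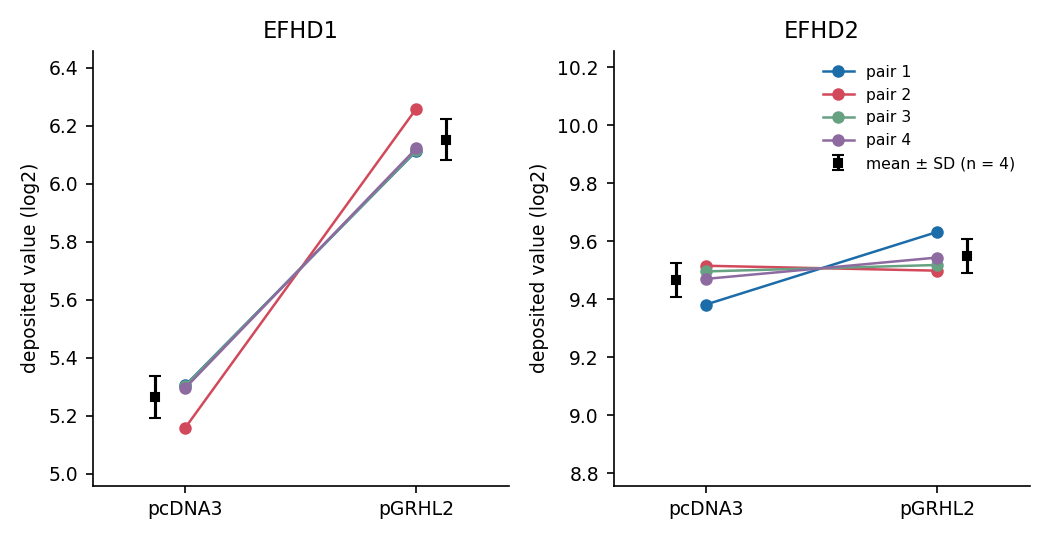
Deposited log2 values of EFHD1 (left) and EFHD2 (right) in each library; lines join same-numbered libraries, black squares are means ± SD (n = 4), and both axes span the same range. Mean EFHD1 was 5.27 with pcDNA3 and 6.15 with pGRHL2, without overlap, while the EFHD2 groups overlapped.

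On the deposited scale, which is per transcript length according to the methods, EFHD1 had the lowest level of the 7 genes with either plasmid. The mean level in pcDNA3 libraries was 12.62 ± 0.03 for VDAC1, 10.32 ± 0.10 for MICU2, 10.00 ± 0.05 for MCU, 9.63 ± 0.04 for LETM1, 9.47 ± 0.06 for EFHD2, 8.53 ± 0.03 for MCUR1 and 5.27 ± 0.07 for EFHD1 (SD, n = 4). No neighbours in this order overlapped in their pcDNA3 values, although these SDs lack the part of the spread that was removed with the replicate means. Over all genes, the mean level of EFHD1 stood at percentile 42.8, and those of the other 6 genes at percentiles from 69.3 to 99.0.

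The pore of the uniporter, MCU, had the most negative log2 FC of the 7 genes. Its values were 10.04, 10.02, 10.02 and 9.92 in pcDNA3 libraries 1 to 4, compared with 9.76, 9.78, 9.77 and 9.87 in pGRHL2 libraries 1 to 4. All pGRHL2 values lay below all pcDNA3 values, with pair differences of -0.28, -0.24, -0.25 and -0.05. The log2 FC of -0.21 ± 0.10 (SD of 4 pairs) did not pass the test over all genes (adjusted p = 0.126 by limma). Its 95% confidence interval went from -0.34 to -0.07. Pair 4 was the smallest difference, and the log2 FC without it was -0.26 (adjusted p = 0.0856 by limma). MCU passed the test only in the fit without the replicate block (adjusted p = 0.0061 by limma), and over all settings its adjusted p went from 0.0061 to 0.475. The fit without the block counts each mirrored difference in both plasmids, and it called 1821 genes higher and 1427 lower of all 17561.

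The gatekeeper MICU2, an EF-hand protein that restrains the pore at resting calcium, varied most between pairs. The values in pcDNA3 libraries 1 to 4 were 10.29, 10.37, 10.42 and 10.20, and those in pGRHL2 libraries 1 to 4 were 10.19, 10.11, 10.06 and 10.28. Pairs 1 to 3 had lower pGRHL2 values and pair 4 a higher one, so that the groups overlapped. The log2 FC was -0.16 ± 0.19 (SD of 4 pairs; adjusted p = 0.354 by limma), which is smaller than the spread between pairs. MCUR1, a regulator of the uniporter, differed by -0.07, -0.04, -0.16 and -0.10 in pairs 1 to 4. Its values were between 8.51 and 8.57 in pcDNA3 and between 8.41 and 8.47 in pGRHL2 libraries, without overlap. The log2 FC of -0.09 ± 0.05 (SD of 4 pairs) was not called (adjusted p = 0.460 by limma), except without the replicate block (0.038). As stated for MCU, the fit without the block counts each mirrored difference in both plasmids.

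LETM1, an inner-membrane protein involved in ion exchange, had values between 9.60 and 9.68 in pcDNA3 and between 9.66 and 9.73 in pGRHL2 libraries. The groups overlapped through pair 4, and the log2 FC was 0.07 ± 0.07 (SD of 4 pairs; adjusted p = 0.599 by limma). VDAC1, the abundant channel of the outer membrane, lay between 12.58 and 12.66 in pcDNA3 and between 12.63 and 12.71 in pGRHL2 libraries. Its log2 FC was 0.05 ± 0.07 (adjusted p = 0.637 by limma). In VDAC1, 2.95% of the exon bases are shared with another annotated gene, and counting took no account of strand.

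**Figure D2:**
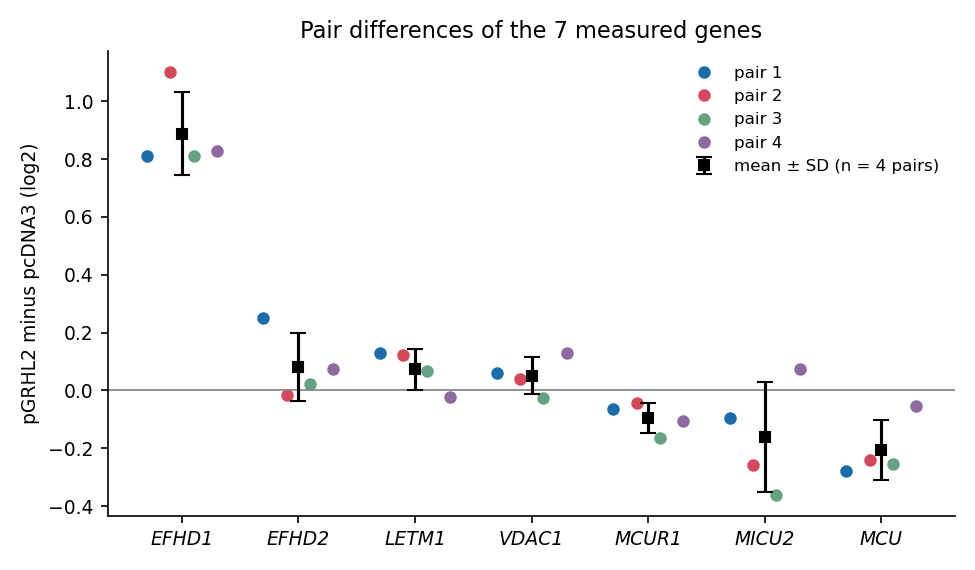
Difference between pGRHL2 and pcDNA3 (log2) of the 7 measured genes in each pair (coloured points), with the mean ± SD of the 4 pairs (black). EFHD1 lies at 0.89 and the other 6 genes between -0.21 and 0.08.

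Besides EFHD1, 0 of the 6 genes were called by limma at an adjusted p under 0.05. Of all genes, 2.19% were called, 1.69% as higher and 0.501% as lower. An unadjusted p under 0.05 was found for 1 of these 6 genes, MCU, compared with 16% of all genes. Groups without overlap were found for 2 of these 6 genes, MCU and MCUR1, and for 24% of all genes. By direction, 0 of the 6 were higher without overlap, beside 13.4% of all genes, and 2 were lower without overlap, beside 10.5%. The median log2 FC of the 6 genes besides EFHD1 was -0.02, beside 0.0017 for all genes. The confidence intervals of these 6 genes had no bound beyond -0.34 or 0.23. EFHD1 was picked for its difference, and 99.96% of all genes had a smaller log2 FC in absolute size.

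**Figure D3:**
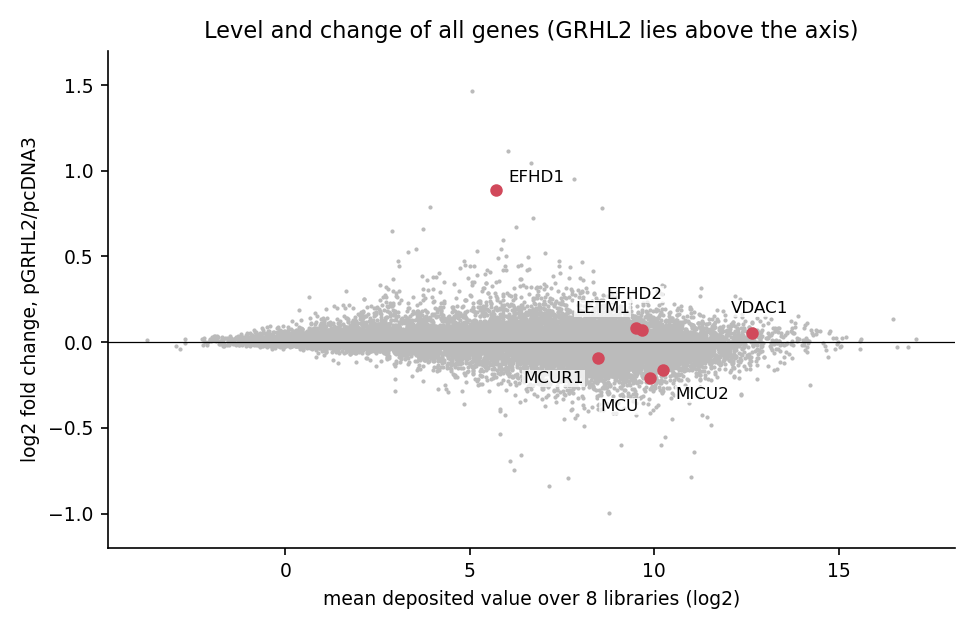
Mean deposited log2 value over the 8 libraries (x axis) against log2 FC (y axis) for all genes (grey) and the 7 genes examined (red); GRHL2, at a log2 FC of 9.48, lies beyond the axis. EFHD1 lies at 0.89, with 5 genes above it, and the other 6 genes lie between -0.21 and 0.08.

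The wider machinery of calcium handling was examined with 12 lists arranged by role, which together held 102 further genes, 99 of them in the table. Of these 99 genes, 0 were called by limma as higher and 0 as lower. An unadjusted p under 0.05 was found for 13 of them, 9 higher and 4 lower, beside 16% of all genes. Their log2 FC went from -0.26 to 0.24 with a median of 0.0084. The smallest adjusted p by limma was 0.0754. Without the replicate block, 11 of them were called higher and 7 lower, beside 1821 higher and 1427 lower of all 17561 genes. With arrayWeights, which weight the libraries by their quality, 2 were called higher (UCP2 and SLC8B1) and 2 lower (SLC25A25 and EFCAB7). Over all genes, the fit with arrayWeights called 503 higher and 221 lower.

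The genes of the uniporter pore and its gatekeepers had a median log2 FC of -0.17 over the 4 genes examined, none of which was called. MCUB, a subunit related to MCU that lowers the activity of the pore, had pair differences of -0.24, -0.09, 0.19 and 0.16 and a log2 FC of 0.0044 ± 0.20 (SD of 4 pairs; adjusted p = 0.989 by limma). MICU3, named after its values were seen, had lower pGRHL2 values in 4 of 4 pairs, by -0.26, -0.19, -0.23 and -0.07, and a log2 FC of -0.19 ± 0.09 (adjusted p = 0.135 by limma). As for MCU, pair 4 held its smallest difference.

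Among 9 regulators and assembly factors of the uniporter, the log2 FC went from -0.09 for MCUR1 to 0.24 for UCP2, with a median of 0.0023 and 0 calls. UCP2, an inner-membrane carrier, had higher pGRHL2 values in 4 of 4 pairs, by 0.26, 0.34, 0.25 and 0.12. Its log2 FC of 0.24 ± 0.09 (SD of 4 pairs) had an adjusted p = 0.081 by limma. SLC25A23, an EF-hand carrier of adenine nucleotides, had a log2 FC of 0.19 ± 0.13 (adjusted p = 0.193 by limma) and was the highest of the 7 EF-hand carriers and GTPases of mitochondria. The lowest of that list was SLC25A25, another carrier of the same family, with pair differences of -0.37, -0.31, -0.04 and -0.31 and a log2 FC of -0.26 ± 0.15 (adjusted p = 0.098 by limma). Both carriers had the same sign in 4 of 4 pairs, in opposite directions.

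Calcium leaves the matrix through exchangers. In a list of 7 genes drawn up around calcium exchange and efflux, 0 were called and the median log2 FC was 0.05. SLC8B1, the mitochondrial sodium/calcium exchanger, was highest with pair differences of 0.27, 0.24, 0.26 and 0.12. Its log2 FC was 0.22 ± 0.07 (SD of 4 pairs; adjusted p = 0.079 by limma), with a confidence interval from 0.10 to 0.35. LETM2, a relative of LETM1, was lowest with a log2 FC of -0.11 ± 0.06 (adjusted p = 0.265 by limma).

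The VDAC channels of the outer membrane lay close together. Log2 FC were 0.05 ± 0.07 for VDAC1, 0.04 ± 0.20 for VDAC2 and 0.06 ± 0.10 for VDAC3 (SD of 4 pairs). VDAC2 differed by 0.33 in pair 4 and by -0.04 to -0.08 in the others. Of 15 genes for calcium release and ER contacts, 0 were called, with a median log2 FC of -0.0011 and values from -0.13 for FUNDC1, a mitophagy receptor found at these contacts, to 0.06 for PACS2, which sorts proteins to them.

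Downstream of uptake, 9 genes of calcium-responsive dehydrogenases and their phosphatases had a median log2 FC of 0.02 and 0 calls. Their log2 FC went from -0.08 ± 0.16 for IDH3A, a subunit of isocitrate dehydrogenase, to 0.06 ± 0.24 for PDPR, a regulator of pyruvate dehydrogenase phosphatase (SD of 4 pairs). IDH3A and PDPR differed by -0.33 and -0.30 in pair 4, and by 0.04 and 0.20 in pair 1. The 6 measured genes linked to the permeability transition had log2 FC from -0.06 for SLC25A4, an adenine nucleotide translocator, to 0.06 for SPG7, a protease of the inner membrane. The median of that list was 0.02 and 0 genes were called. In the list of ER stores and store-operated entry, 0 of 15 genes were called, and log2 FC went from -0.13 for SELENOK, an ER selenoprotein, to 0.17 for RCN1, an ER protein with EF-hands.

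**Figure D4:**
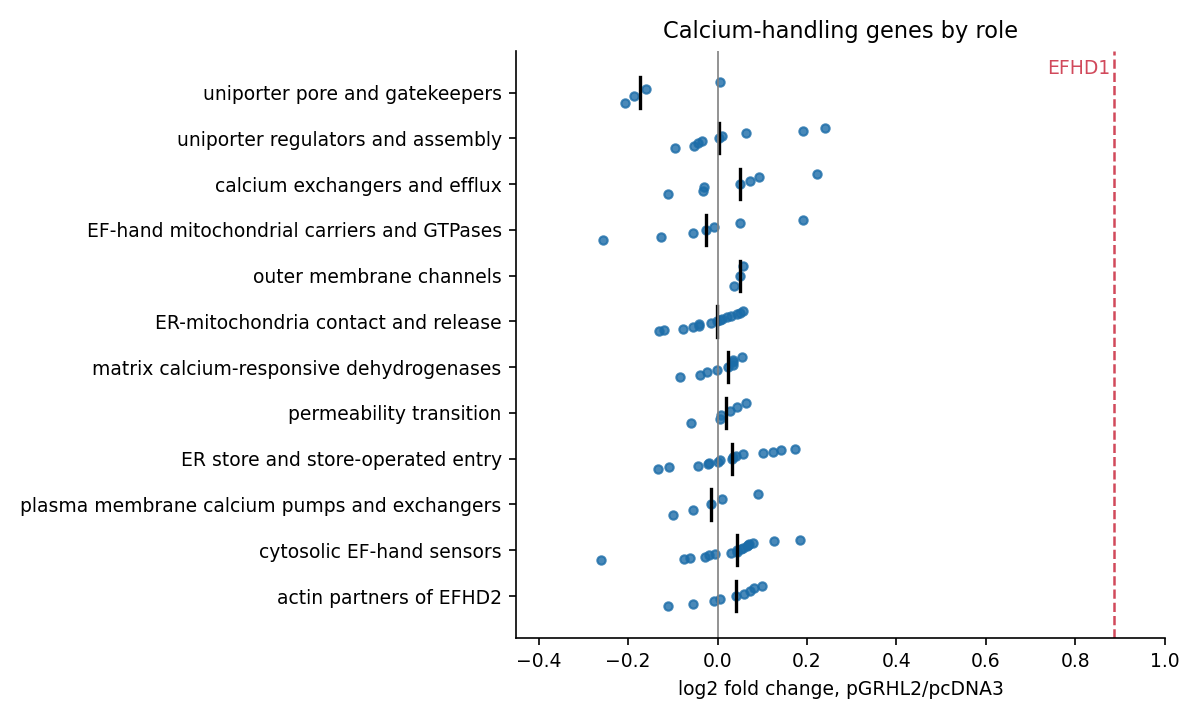
Log2 FC of every measured gene (points) in the 12 lists of calcium-handling genes, with the median of each list (black bar) and the value of EFHD1 (dashed line). All points lie between -0.26 and 0.24, and EFHD1, picked for its difference, lies at 0.89.

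EFHD1 was next compared with its neighbours on chromosome 2. EIF4E2, a cap-binding protein, ends 22.4 kb before EFHD1, and GIGYF2, its partner in translational repression, starts 14.6 kb after it. They had log2 FC of -0.01 ± 0.12 and -0.05 ± 0.10 (SD of 4 pairs), with adjusted p values of 0.951 and 0.752 by limma. The sign for EIF4E2 turned with arrayWeights and when single pairs were left out. TIGD1, SNORC and NGEF had log2 FC of -0.11 ± 0.22, 0.02 ± 0.23 and -0.03 ± 0.13, all within the spread between pairs. CHRND, a subunit of the muscle acetylcholine receptor with a low mean value of 1.95, had higher pGRHL2 values in 4 of 4 pairs by 0.12, 0.11, 0.08 and 0.03, and was not called (adjusted p = 0.084 by limma). It was called without the replicate block (adjusted p = 0.00478 by limma) and with arrayWeights (0.0385), and its adjusted p was between 0.0505 and 0.323 under the other settings. Of the 6 neighbours, 0 were called in the blocked fit without weights, and the confidence interval of each stayed below 0.22.

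**Figure D5:**
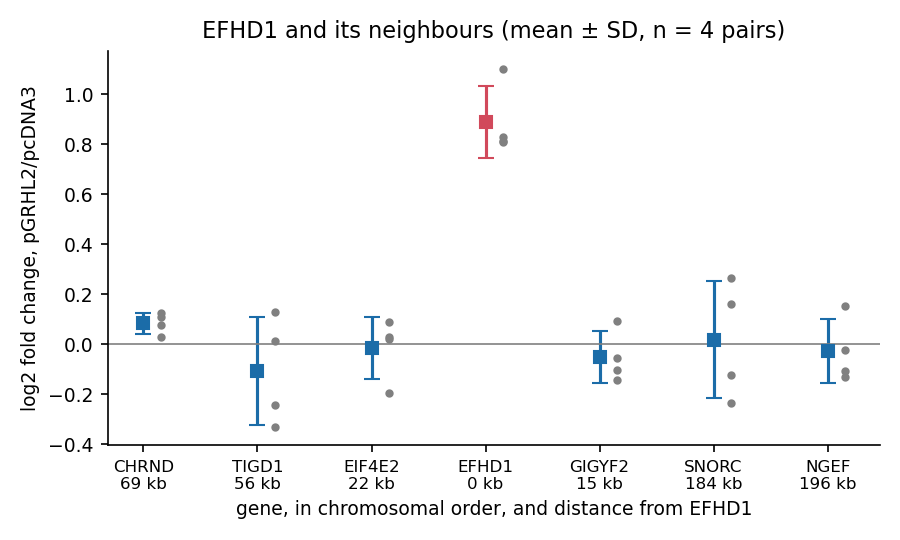
Log2 FC of EFHD1 (red) and of the 3 nearest measured genes on either side (blue), in chromosomal order with the distance from EFHD1 in kb; squares and bars are means ± SD of the 4 pairs and grey points the single pairs. EFHD1 lies at 0.89 and its neighbours between -0.11 and 0.08.

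The genes whose 4 pair differences were closest to those of EFHD1 were listed by the root mean square of the deviations. They were SIRPA, a receptor for CD47, at 0.18 (log2), SLC44A2, a choline transporter, at 0.19, GPNMB, a transmembrane glycoprotein, at 0.23, TMEM200A at 0.24 and ITGA3, an integrin subunit, at 0.25. Their log2 FC were 0.79 ± 0.19, 0.73 ± 0.08, 1.05 ± 0.15, 0.66 ± 0.09 and 0.95 ± 0.14 (SD of 4 pairs). This measure rests on 4 pairs of the same libraries and by its definition favours genes with a difference of similar size. None of these genes belongs to the lists of calcium-handling genes. The highest log2 FC in those lists was 0.24, so this absence follows from the measure.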

How the data were processed

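HepG2 libraries (4 pGRHL2, 4 pcDNA3) were grouped by their labels. According to the methods, alignment was to hg38 by Hisat2 and exon counting by HTSeq, regardless of strand. Genes with few reads were removed and the authors divided rlog values of DESeq2 by transcript length. The deposited values are log2 values (lowest -3.76), although the table is named as FPKM. Level changed by -0.08 per unit of log2 transcript length over all genes, and by -0.77 among the 1295 genes whose pair differences had an SD under 0.02, so the length adjustment is taken from the methods. A stray character was removed from 1 value, and 0 columns belonged to other samples. Replicate means were equal in 17561 of 17561 genes (tolerance 1e-09). This step is not described, makes the correlation of paired deviations -1 by construction and thus voids it as a check of pairing.

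All genes were fitted with limma 3.58.1 in R 4.3.3 (lmFit, eBayes with trend, replicate number as a block) and Benjamini-Hochberg adjustment at 0.05, after a test on simulated data. Whether the libraries came from separate cultures is not given in the labels, whereas the study's legends call them independent biological replicates, so p-values measure the spread between these libraries. Members, lists and tests were chosen with earlier results of these data known. The genes named are the members, GRHL2, called genes and both extremes of each list, 3 neighbours on either side of EFHD1 and the 5 genes nearest in pattern. MICU3 was named after its values were seen. Of the genes listed at the outset, 2 are not reported here. Symbols matched GENCODE release 44 for 99.9% of genes. RefSeq promoter windows were found for 7 of the 8 members, of which that of VDAC1 lay outside the GENCODE gene and was left out. Alternatives were a fit with no block, eBayes made robust or without a trend, arrayWeights, 2 scalings, a mean value of at least 5, an adjusted p under 0.01, leaving out each pair, and removal of trends on GC content, length and level (natural splines with 5 degrees of freedom).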

Additional observations from a re-analysis of the deposited data

Results flagged for a closer look

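Among 42 genes examined, 5 had a pair far from the other 3, judged by its gap to the nearest pair relative to the range. The nominal rate of this limit is about 1 in 20. The 42 genes were not drawn at random, as they include list extremes and genes chosen for likeness to EFHD1. The share of all genes past the limit was not computed, so whether 5 is an excess was not tested. MCU passed the limit only narrowly. Since partners are mirror images, an outlying library and an outlying pair are the same observation. EFHD1 differed by 1.10 in pair 2 and by 0.81 to 0.83 in the others. Pair 4 was the distant pair in the other 4 genes. There, MCU differed by -0.054, against -0.28 to -0.24, and EFCAB7 by -0.056, against -0.36 to -0.31. PDPR differed by -0.30 in pair 4, against 0.13 to 0.20, and VDAC2 by 0.33, against -0.08 to -0.04. In these 4 genes the difference of pair 4 was above the others in MCU, EFCAB7 and VDAC2 and below them in PDPR. Depth and RNA quality of the pairs were not analysed here, and their part in these gaps was not tested.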

How the results depend on the processing

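The EFHD1 log2 FC went from 0.82 to 0.91 over the 12 other settings. EFHD1 was picked for its difference, so its calls are not counted here. With eBayes without a trend, 4 genes were higher and 2 lower over all genes, in place of 297 and 88. Without the replicate block, 1821 genes were higher and 1427 lower. The members MCU and MCUR1 were called (adjusted p of 0.0061 and 0.038 by limma), and 11 pathway genes were higher and 7 lower. That fit counts each mirrored difference in both plasmids. With arrayWeights, 503 genes were higher and 221 lower, and 2 pathway genes were higher (UCP2 and SLC8B1) and 2 lower (SLC25A25 and EFCAB7). CHRND was called with arrayWeights and without the block. Rescaling to the same sum without GRHL2 gave 495 higher genes, against 63 with a mean value of at least 5, and 152 with GC content, length and level trends removed, the last chosen after seeing the data. At an adjusted p under 0.01, 77 genes were higher and 10 lower. Leaving out a pair gave 79 to 156 higher and 8 to 68 lower genes, and 0 to 1 lower pathway genes, EFCAB7 being called without replicate 4 (limma adjusted p of 0.045). The cause of these changes was not tested.

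The direction changed in genes close to 0. MCUB was -0.056 and EIF4E2 0.0103 with arrayWeights, and with trends removed EIF4E2 was 0.0117. When pairs were left out, MCUB went from -0.0559 to 0.0843, VDAC2 from -0.0619 to 0.0758, EIF4E2 from -0.0493 to 0.0454, SNORC from -0.0655 to 0.10 and NGEF from -0.0866 to 0.0080. For the named genes besides EFHD1 under settings other than leaving out a pair, 340 values kept direction and call, 18 gained a call, 2 lost it (SIRPA and TMEM200A without a trend) and 3 turned. With unknown depth, no limit of detection could be given for EFHD1 or CHRND.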

Other observations

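Proteins with EF-hands outside mitochondria and the actin partners of EFHD2 were compared as well. Of 17 examined cytosolic and other EF-hand sensors, 0 were called by limma, with a median log2 FC of 0.04. EFCAB7, an EF-hand protein of cilia, had the lowest log2 FC of the 99 pathway genes, with pair differences of -0.36, -0.31, -0.32 and -0.06 and a log2 FC of -0.26 ± 0.14 (SD of 4 pairs; adjusted p = 0.0754 by limma). NUCB2, a calcium-binding protein of the secretory pathway, was highest in that list with a log2 FC of 0.19 ± 0.11 and higher pGRHL2 values in 4 of 4 pairs (adjusted p = 0.183 by limma).

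Among 9 actin-binding genes chosen as partners of EFHD2, log2 FC went from -0.11 ± 0.09 for PLS3 to 0.10 ± 0.08 for LCP1, both actin-bundling plastins, and 0 genes were called. Of 5 measured plasma membrane calcium pumps and exchangers, 0 were called, with log2 FC from -0.10 for ATP2B1 to 0.09 for SLC8A2. Of the markers of other cell types in the table, 5 of cholangiocytes, 3 of mesenchymal, 2 of endothelial and 1 of immune cells, 0 were called. Their log2 FC went from -0.0058 for PDGFRB to 0.20 for COL1A1, a collagen gene that was higher in 4 of 4 pairs (adjusted p = 0.0838 by limma). The 5 cholangiocyte markers went from 0.0094 for CFTR to 0.19 for KRT7. KRT7 was also higher in 4 of 4 pairs (adjusted p = 0.097 by limma). Of all genes, 13.4% were higher in 4 of 4 pairs. The study, which tested read counts with DESeq2, names KRT7 among the genes induced by GRHL2 in HepG2 cells. Read counts were not analysed here.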
